A study of Mus musculus with 9 samples.

Results

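Differentiating spermatogonia (SG) were 845 of the 45132 cell barcodes, or 1.87%, kept when over 1000 genes were detected and mitochondrial transcripts held under 10% of UMIs (unique molecular identifiers, which count RNA molecules) in single-cell RNA-seq of 9 mouse testes. A barcode was taken as a differentiating SG when it held at least 1 UMI of Crabp1, a UMI in at least 3 of the 6 markers Crabp1, Kit, Sohlh1, Dmrt1, Uchl1 and Dnmt3b, and at least 0.02% of its UMIs in those 6. It also had at most 1 UMI of Stra8, at most 1 UMI summed over Dmc1, Prdm9 and Prss50, and a UMI in at most 3 of Gfra1, Zbtb16, Trim71, Egr4, Etv5 and Glis3. The cells were thus chosen by the UMI counts of these 16 genes, and the values of those genes are descriptions and carry no test.

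All mice are labelled C57BL/6 and were sampled on postnatal day 24. The study's methods give a backcross to C57BL/6 J, with the floxed Nelfb line from C57BL/6 N and the floxed Tardbp line from a mix of both. The 4 Control mice comprised littermates and non-littermates of the knockouts. The 2 NELF-B cKO mice carried Stra8-iCre with 1 floxed and 1 null Nelfb allele, which removes exons 1 to 4, and the 3 TDP-43 cKO mice carried Stra8-iCre with 1 floxed and 1 null Tardbp allele, which removes exon 3. The study's methods give Cre activity in SG from postnatal day 4 with incomplete penetrance early on, so differentiating SG are among the first cells in which recombination is under way, and a given cell need not be recombined. NELF-B is a subunit of the negative elongation factor, and TDP-43, encoded by Tardbp, is a DNA- and RNA-binding protein.

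In the testis, retinoic acid moves undifferentiated SG into a series of mitotic divisions under the control of the receptor KIT and of the transcription factors SOHLH1 and DMRT1. After the last of these divisions the cells switch on Stra8 again, replicate their DNA as preleptotene (pL) cells and enter leptotene and zygotene (L, Z) of meiosis. NELF holds RNA polymerase II just downstream of the promoter until it is released into elongation, and TDP-43 is best known for its work in splicing and RNA processing.

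The number of differentiating SG was 87, 75, 56 and 42 in Control replicates 1 to 4, 251 and 48 in NELF-B cKO replicates 1 and 2, and, for TDP-43 cKO replicates 1 to 3, 75, 98 and 113. NELF-B cKO replicate 1 alone therefore held the largest number of cells of any mouse, and Control replicate 4 the smallest. Summed over these cells a mouse gave between 505368 and 3051053 UMIs, and the median per cell ran from 7906 to 15416 UMIs. Whole libraries held between 119203347 and 159407373 UMIs. No barcode of a differentiating SG occurred in a second mouse, whereas 260 barcodes past the filter were shared over the 36 pairs of mice, 1 to 24 per pair.

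Among the 845 cells, 241 had a UMI in 3 of the markers, 245 in 4, 213 in 5 and 146 in all 6, and 599 had no Stra8 UMI while 246 had 1. Cells that missed membership by a single condition numbered 1367 for the Dmc1, Prdm9 and Prss50 limit, 612 for the limit on undifferentiated genes, 545 for the Stra8 limit, 523 for the number of markers, 256 for Crabp1 and 107 for the marker share. At the 0.02% edge, the lowest marker share of a member was 0.02% to 0.058% by mouse and the highest share of a barcode kept out by that condition alone was 0.0119% to 0.0196%. For comparison, 3 neighbouring populations were cut from marker UMIs, 1474 undifferentiated SG (at least 3 of the 6 undifferentiated genes), 973 pL barcodes (at least 2 Stra8 UMIs) and 6081 L/Z barcodes (at least 2 of Dmc1, Prdm9 and Prss50).

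Genes that the rule did not use were checked against the label, and 62 cells stood apart. In Control mice Dazl, a germ-cell RNA-binding protein, stood at 829, 895, 687 and 918 CPM (counts of a gene scaled to a total of 1000000), and Ddx4, a germ-cell RNA helicase, at 261, 258, 250 and 202. Cyclin D1 (Ccnd1) was at 208 ± 63.5 CPM (SD, n = 4), against 17.8 in undifferentiated SG, 88.5 in pL and 72.7 in L/Z barcodes of the same mice. The X-linked homeobox genes Rhox13 and Esx1 were at 138 ± 39.4 and 127 ± 34.9 CPM, against 8.10 and 3.84 in undifferentiated SG. Cyclin D2 (Ccnd2), by contrast, was at 11.8 ± 3.5 CPM, below the 56.7 of undifferentiated SG and the 108 of pL barcodes. Rhox13 and Esx1 were set against undifferentiated SG alone, so their values do not part differentiating SG from pL or L/Z barcodes. Ccnd1 and Esx1 were not among the genes planned for this check, and the planned Sohlh2, Dnmt3l and Rarg are not shown.

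These 62 cells (7.34%) carried more than 0.5% of their UMIs from 33 genes of Sertoli, Leydig, and peritubular, stromal, endothelial and immune cells, a limit chosen after the data had been seen. They were 2, 1, 4 and 0 cells in Control replicates 1 to 4, 8 in each NELF-B cKO mouse, and 20, 6 and 13 in TDP-43 cKO. Their median of 26829.5 UMIs compares with 10207 for the other 783 cells. Because they were large, they supplied 63.1%, 13.9% and 29.6% of all UMIs in the TDP-43 cKO sums, and 7.12% and 19.4% in the NELF-B cKO sums, against 0 to 13.7% in Control. The 12 genes of the Sertoli list summed to 16202, 3767 and 9211 CPM in the TDP-43 cKO mice and to 532 to 4103 CPM in Control, and were at 627 to 905 and 532 to 598 CPM within the limit, where the NELF-B cKO mice had 377 and 1508 CPM. Within it, Sox9 was at 0 to 11.3 CPM and Amh at 0 to 4.84 CPM in every mouse. The counts of called genes below are therefore given for all cells and for those within the limit.

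**Figure D1:**
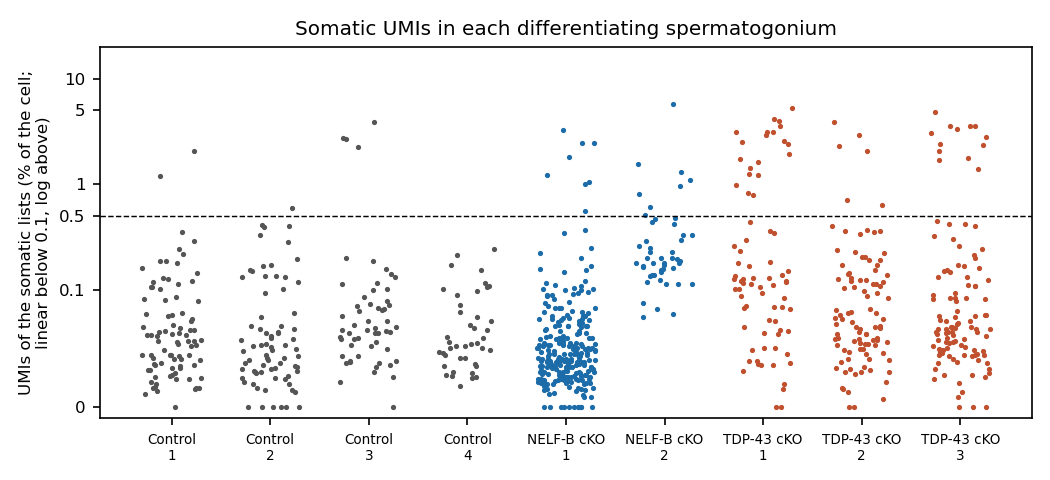
Percent of UMIs from the 3 somatic gene lists in each differentiating SG (points), by mouse, with the limit of 0.5% as a line. Of 845 cells 62 lie above the line, 39 of them in the 3 TDP-43 cKO mice.

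Control and mutant testes also differed in the RNA that surrounds the cells, measured in barcodes of 1 to 100 UMIs. The 12 genes of the round spermatid list summed to 2609, 423, 2789 and 3217 CPM of this free RNA in Control, to 3345 and 71.1 in NELF-B cKO and to 27.5, 132 and 109 in TDP-43 cKO. The pachytene and diplotene list summed to 9869 to 12434 CPM in Control, 8958 and 1926 in NELF-B cKO and 331 to 3366 in TDP-43 cKO free RNA. In the differentiating SG themselves that list stood at 3028, 1880, 3863 and 1132 CPM in Control, at 1730 and 303 in NELF-B cKO and at 102, 381 and 310 in TDP-43 cKO. NELF-B cKO replicate 1 lay with the Control mice in the cells and near them in the free RNA, and the 4 remaining mutant mice were lower in both.

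The 6 rule markers were not all highest in the cells they chose. In Control mice they summed to 1377 CPM in differentiating SG, against 1608 in pL barcodes, 416 in undifferentiated SG and 380 in L/Z barcodes. Crabp1, a retinoic acid-binding protein, was at 298 ± 52.2 CPM, against 26.9 in undifferentiated SG, 255 in pL and 51.9 in L/Z barcodes. Dmrt1 was at 266 ± 48.4 CPM, against 72.9, 224 and 106, and Dnmt3b, a DNA methyltransferase, at 58.5 ± 8.22, against 16.6, 77.2 and 13.1. Uchl1, a deubiquitinase, was at 572 ± 117, below the 813 of pL barcodes, and Sohlh1 at 79.2 ± 13.9, against 53.9, 142 and 25.1. Dnmt3b, Uchl1 and Sohlh1 were thus higher in pL barcodes. Kit was at 83.2, 144, 76.8 and 111 CPM in Control, at 130 and 120 in NELF-B cKO, and at 41.4, 65.0 and 60.6 in TDP-43 cKO. Within the somatic limit the Kit values of the TDP-43 cKO mice were 68.1, 74.5 and 73.0 CPM against 84.1 to 146 in Control. The 3 mice still lay below every Control mouse, as they did for 13.7% of all genes tested. Crabp1 within the limit was at 382, 371 and 385 CPM in TDP-43 cKO against 250 to 346 in Control. The rule chose cells by both genes and asked for a Crabp1 UMI in each cell, so these values only describe the chosen cells.

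Outside the rule, the genes that most set differentiating SG apart from all other barcodes of the Control mice were rarely detected in all of them. Of the 15 with the highest ratio, Upb1, an enzyme of pyrimidine breakdown, was the most even between mice, at 74.7, 81.6, 72.6 and 59.4 CPM in Control, 12.6 times its level in the other barcodes. Tcea3, an elongation factor of the TFIIS family, was at 46.9, 93.5, 50.5 and 89.0 CPM and 13.8 times higher than elsewhere, with at most 6 UMIs in any cell. Zfp286os, an antisense transcript, reached 704, 1589, 678 and 1779 CPM in Control, 2110.1 and 1221 in NELF-B cKO, and 387, 963 and 931 in TDP-43 cKO.

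The top of that ranking rested on single cells. Gm49527 had the highest ratio of all, 102, but its CPM was 396 in Control replicate 4 and at most 1.07 in the other Control mice, and all 200 of its UMIs in replicate 4 lay in 1 of 42 cells. C77080 had 453 of its 479 UMIs of that mouse in 1 cell. Aire, the autoimmune regulator known for switching on tissue-restricted genes in the thymus, stood at 27.7, 5.93, 76.8 and 117 CPM in Control through 3, 2, 3 and 3 cells, and had no UMI in any of the 286 differentiating SG of the TDP-43 cKO mice. In NELF-B cKO replicates 1 and 2 Aire was at 4.92 and 0 CPM. These ratios therefore described few cells.

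Most of the leading genes had no UMI in most cells and many UMIs in a few, and a cell without a UMI is not shown to lack the transcript. Stmn3, a stathmin family member, had no UMI in 761 of the 845 cells, whereas 28 cells with at least 20 UMIs held 88.1% of its 1651 UMIs, up to 170 in a single cell. Gm42884 had no UMI in 810 cells, and 13 cells held 1195 of its 1247 UMIs. Zfp286os was less extreme, with 409 cells at 0, 219 with 1 to 4 UMIs, 71 with 5 to 19, and 146 with 20 or more that held 92.4% of its 13639 UMIs. Lin28a, an RNA-binding protein of early SG, had 481 cells at 0 and 86 with 20 or more that held 80.3%, up to 223 UMIs.

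H3f3b, an abundant gene that encodes the replacement histone H3.3 and that the rule did not use, was missing from 5 cells and had a median of 33 UMIs. The rule markers are given as a description, since their UMIs chose the cells. Uchl1 was at 0 in 32 cells, Dmrt1 in 105, Kit in 377, Sohlh1 in 394 and Dnmt3b in 518, and none of the 6 exceeded 53 UMIs in a cell.

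**Figure D2:**
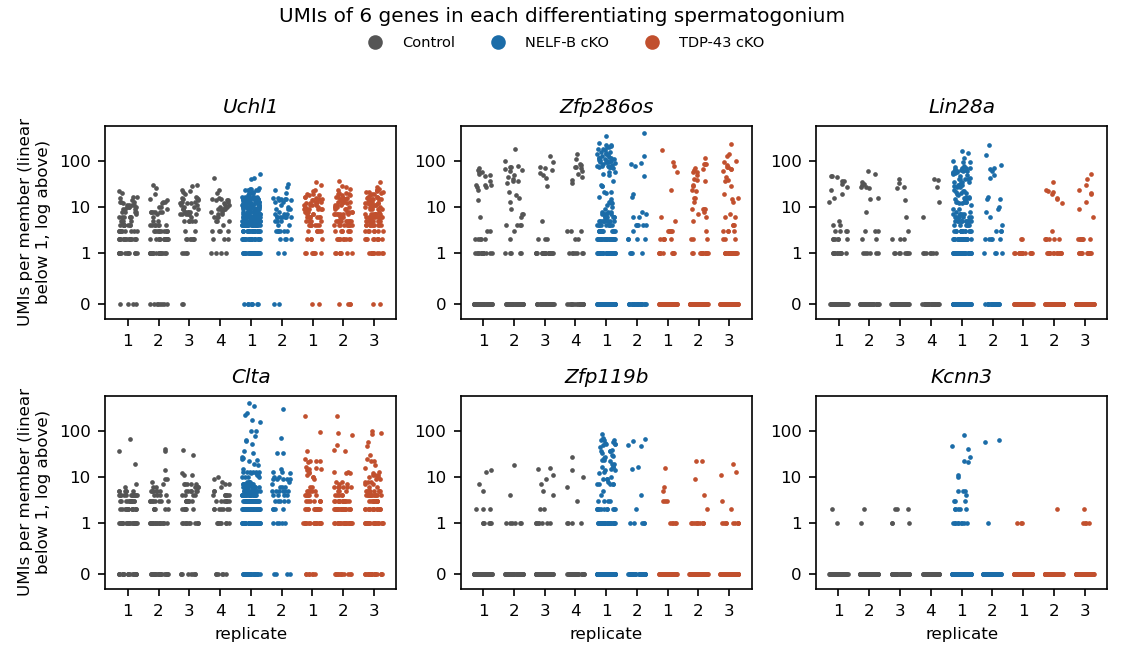
UMIs of 6 genes in each differentiating SG (points) by mouse, on an axis that is linear below 1 and logarithmic above. Uchl1, a gene of the rule, reaches 53 UMIs, Lin28a, Zfp119b and Kcnn3 have 481, 654 and 794 of 845 cells at 0, Zfp286os has 409, and each of these 4 has a group of cells at 20 or more UMIs.

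To count such cells without choosing genes, single-cell peaks were defined over 23338 genes. These were under 30 CPM in each of the 9 whole libraries, with the rule genes set aside. A peak was such a gene that reached at least 15 of 5000 UMIs (0.3%) in a cell thinned to 5000 UMIs. This definition was made after the data had been seen, and only cells of at least 5000 UMIs within the somatic limit were counted. Of 635 such differentiating SG, 350 (55.1%) held at least 1 peak. Per 100 cells there were 125 peaks in differentiating SG, against 8.13 in undifferentiated SG, 37.5 in pL and 25.3 in L/Z barcodes. NELF-B cKO replicate 1 supplied 229 of these 635 cells and 510 of the 794 peaks, and without it the values were 70 peaks per 100 differentiating SG, 6.99 per 100 undifferentiated SG, 25.8 per 100 pL and 21 per 100 L/Z barcodes. These stages were cut by marker UMIs, so their difference is a description and was not tested. The limit of 30 CPM also weighs unevenly on stages, since a gene high in cells of a common stage more readily exceeds it in a whole library. L/Z barcodes numbered 6081 and differentiating SG 845, and how far this moved the values by stage was not tested.

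In each of the 9 mice, differentiating SG held more peaks per cell than each of the 3 neighbouring stages. The Control mice had 63.5, 64.7, 80.9 and 73.5 peaks per 100 differentiating SG, from 74, 51, 47 and 34 cells, and 20.8 to 29.6 per 100 pL barcodes. The NELF-B cKO mice had 223 and 142 from 229 and 36 cells, and the TDP-43 cKO mice 46.2, 40.3 and 71.8 from 26, 67 and 71 cells. Both NELF-B cKO mice thus lay above every Control mouse, while TDP-43 cKO replicate 3 lay within the Control range. They were also above every Control mouse in pL barcodes, at 121 and 50 per 100, and in L/Z barcodes, at 59.7 and 30.1 against 18.5 to 26.9. In undifferentiated SG, at 19.8 and 6.74, replicate 2 lay within the Control range of 1.87 to 9.57. A peak was present in 76.9% and 66.7% of NELF-B cKO cells, in 41.9%, 39.2%, 48.9% and 50% of Control cells, and in 26.9% to 42.3% of TDP-43 cKO cells.

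**Figure D3:**
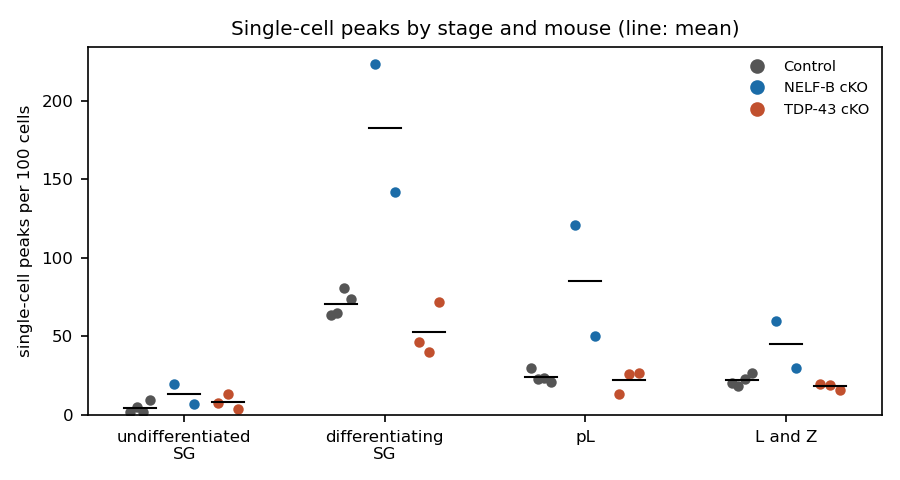
Single-cell peaks per 100 cells by mouse in undifferentiated SG, differentiating SG, pL and L/Z barcodes. Each mouse has its highest value in differentiating SG, and the 2 NELF-B cKO mice, at 223 and 142, lie above the 4 Control mice, at 63.5 to 80.9. Genes were limited to under 30 CPM in whole libraries, which hold unlike numbers of cells of each stage.

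The log2 ratio of the NELF-B cKO mean to the Control mean was 1.37 (exact two-sided permutation test over mice, p = 0.133, the smallest that 4 against 2 mice allow). That of TDP-43 cKO was -0.42 (exact p = 0.171). The NELF-B cKO direction held with thresholds of 0.2% (0.98) and 0.5% (2.00), at 10000 UMIs (1.68), in cells with 5 or 6 markers (1.47) and in cells without a Stra8 UMI (1.30). With genes under 10 CPM it was 0.92 (exact p = 0.267), and replicate 2, at 33.3 peaks per 100 cells, then lay within the Control range of 21.6 to 44.7 while replicate 1 was at 83.8. Rarity had first been set from each mouse's own library, and the common list of genes was made the main definition after both had been seen, because a library's own average depends on which cells it holds. Under the first definition TDP-43 cKO, at 57.7 to 80.3 peaks per 100 cells, lay below Control, at 110.2 to 176 (log2 ratio -0.97, exact p = 0.0571, the smallest that 4 against 3 mice allow), so the separation of the TDP-43 cKO mice depended on the definition. It depended on the cells too, since with cells over the somatic limit included the TDP-43 cKO mice had 26.1, 45.8 and 57.8 peaks per 100 cells, below every Control mouse at 61.5 to 82.4 (log2 ratio -0.69, exact p = 0.0571).

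The peaks were spread over many genes. The 794 peaks in differentiating SG fell on 505 genes, 367 of them with a peak in NELF-B cKO replicate 1 and 218 with a peak in another mouse. Of the 505, 361 (71.5%) peaked in 1 cell and 94 (18.6%) in at least 2 mice. Protein-coding genes made up 362 of them (71.7%), against 62.4% of the 14970 rare genes with a UMI in any differentiating SG, and 4 (0.792%) were on the X chromosome, against 3.88% of those rare genes. Of the 505 genes, 114 (22.6%) also peaked in pL barcodes, which is 48.3% of the genes that peaked there. In L/Z barcodes 237 (46.9%) of them peaked, 33.4% of the genes of that stage.

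Stmn3 peaked in the most cells, 17 in 7 mice, with 6 in Control, 6 in NELF-B cKO and 5 in TDP-43 cKO. Unc13d, which primes secretory granules for release, peaked in 1 Control, 10 NELF-B cKO and 2 TDP-43 cKO cells. Kcnn3, a calcium-activated potassium channel, and Ppt2, a lysosomal thioesterase, each peaked in 5 cells, all from NELF-B cKO mice. The 6 cells with a peak of the zinc-finger gene Zfp13 came from 1 mouse. NELF-B cKO mice held 561 of the 794 peaks (70.7%) and 265 of the 635 cells (41.7%), the background for such counts.

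Differentiating SG made up 1.14%, 0.887%, 1.09% and 0.861% of barcodes in Control, 4.45% and 1.61% in NELF-B cKO and 1.90%, 3.24% and 3.27% in TDP-43 cKO. Over all barcodes every mutant mouse lay above every Control mouse. The log2 ratio of means was 1.61 for NELF-B cKO (exact two-sided permutation p = 0.133) and 1.49 for TDP-43 cKO (p = 0.0571 by the same exact test), each the smallest p its number of mice allows. Other values moved with these shares. The median depth of all barcodes past the filter was 1754 to 6369 UMIs in Control, 5165 and 17312.5 in NELF-B cKO and 14117 to 19254 in TDP-43 cKO. The whole rule was also applied again to barcodes thinned to 5000 UMIs. The share passing was 7.97%, 6.98%, 6.98% and 4.12% in Control, 13.4% and 5.03% in NELF-B cKO and 6.33%, 14.1% and 12.7% in TDP-43 cKO. NELF-B cKO replicate 2 and TDP-43 cKO replicate 1 then lay inside the Control range, at log2 ratios of 0.50 (exact p = 0.533) and 0.76 (exact p = 0.229). Thinning also lowers the UMIs that the upper limits of the rule count, and 1986 thinned barcodes passed against 845 cells at full depth. These shares therefore include other cells and cannot tell how differentiating SG compare at a common depth. As a share of barcodes from undifferentiated SG to zygotene, the values of TDP-43 cKO were 6.69%, 7.03% and 7.21%, inside the Control range of 4.35% to 13.7% (log2 ratio -0.27, exact p = 0.743). On that scale the NELF-B cKO mice had 19.2% and 6.96% (log2 ratio 0.63, exact p = 0.4), so the direction of TDP-43 cKO turned with the denominator.

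The targeted genes were examined first. Nelfb (chr2:25199712-25211489, minus strand, GRCm38) stood at 83.2, 71.2, 59.9 and 81.1 CPM in Control, at 1.97 and 5.21 in NELF-B cKO and at 36.5 to 57.3 in TDP-43 cKO. The NELF-B cKO values came from 6 and 4 UMIs in 6 of 251 and 4 of 48 cells and were near those of the free RNA, 2.78 and 5.53 CPM. Nelfb fell by 4.65 on the log2 scale (SE 0.41, adjusted p = 0.00972, edgeR quasi-likelihood test) over all cells. Within the somatic limit it fell by 5.11 (SE 0.33, adjusted p = 0.000256, edgeR).

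Tardbp (chr4:148612382-148627019, minus strand) stood at 88.5, 68.2, 78.9 and 73.2 CPM in Control, 68.8 and 54.7 in NELF-B cKO, and 52.7, 39.5 and 38.2 in TDP-43 cKO. The 3 TDP-43 cKO mice lay below every other mouse, and the gene fell by 0.84 on the log2 scale (SE 0.22, adjusted p = 0.0491, edgeR). The libraries read the 3′ end of transcripts, away from the deleted exon 3, so a transcript that lacks the exon would still be counted. Within the somatic limit the TDP-43 cKO values were 13.2, 33.7 and 29.0 CPM against 67.6 to 90.8 in Control, a log2 fold change of -1.53 (SE 0.25, adjusted p = 0.062 by edgeR and 0.000546 by DESeq2). Free RNA held 55.6 to 141 CPM of Tardbp in the 9 mice.

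**Figure D4:**
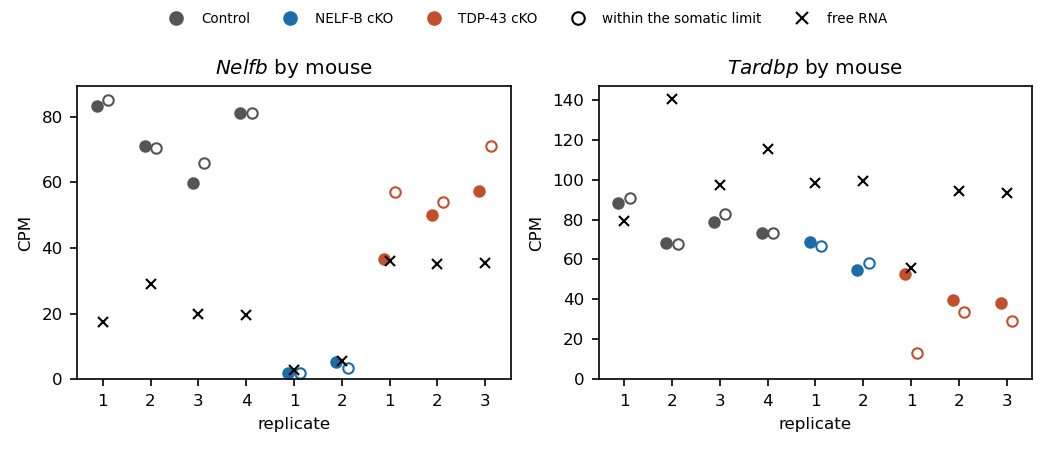
Nelfb and Tardbp in differentiating SG of each mouse in CPM, over all cells (filled), within the somatic limit (open) and in free RNA (crosses). Nelfb lies at 1.76 to 5.21 CPM in the NELF-B cKO mice, at the level of their free RNA, and Tardbp at 13.2 to 52.7 CPM in the TDP-43 cKO mice, below theirs.

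The window of Nelfb from 250 bases before to 50 after its start is shown with those of 3 genes that were called higher in NELF-B cKO cells, because NELF acts at this place of a gene. The sequences are from RefSeq (GRCm38.p6), 5′ to 3′ on the strand of the gene, with TATAAA and GGGCGG or their reverse complements in capitals. The windows are chr2:25211440-25211739 (minus strand) for Nelfb, chr4:44012420-44012719 (plus) for 1 of 2 Clta windows, chr11:116024455-116024754 (minus) for H3f3b and chr3:89519914-89520213 (plus) for Kcnn3.
Nelfb: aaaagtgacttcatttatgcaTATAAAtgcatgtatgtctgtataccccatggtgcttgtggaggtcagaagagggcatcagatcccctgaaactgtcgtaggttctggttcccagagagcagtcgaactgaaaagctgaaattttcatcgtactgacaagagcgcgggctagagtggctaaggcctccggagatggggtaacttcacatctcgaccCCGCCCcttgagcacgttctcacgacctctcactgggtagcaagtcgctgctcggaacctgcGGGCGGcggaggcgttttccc
Clta: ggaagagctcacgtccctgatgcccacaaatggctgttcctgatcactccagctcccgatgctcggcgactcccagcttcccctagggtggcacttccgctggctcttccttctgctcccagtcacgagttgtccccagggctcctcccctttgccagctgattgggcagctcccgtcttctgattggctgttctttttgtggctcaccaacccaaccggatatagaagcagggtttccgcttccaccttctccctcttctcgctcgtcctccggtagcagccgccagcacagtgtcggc
H3f3b: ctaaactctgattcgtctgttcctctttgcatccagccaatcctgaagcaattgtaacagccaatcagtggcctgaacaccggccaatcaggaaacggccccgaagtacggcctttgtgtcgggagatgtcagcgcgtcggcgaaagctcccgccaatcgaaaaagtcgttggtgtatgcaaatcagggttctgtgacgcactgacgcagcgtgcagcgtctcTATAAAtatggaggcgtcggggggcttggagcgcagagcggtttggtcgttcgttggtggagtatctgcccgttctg
Kcnn3: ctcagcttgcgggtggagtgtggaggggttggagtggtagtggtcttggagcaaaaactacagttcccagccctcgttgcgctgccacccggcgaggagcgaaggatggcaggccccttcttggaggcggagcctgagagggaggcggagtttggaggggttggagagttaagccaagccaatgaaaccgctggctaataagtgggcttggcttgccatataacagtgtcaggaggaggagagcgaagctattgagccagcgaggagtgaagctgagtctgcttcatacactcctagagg
Nelfb has TATAAA at position -229 and GGGCGG at -33 and 30 from its start, H3f3b has TATAAA at -27, and the Clta and Kcnn3 windows shown hold neither, while the other Clta window (chr4:44004193-44004492) holds GGGCGG at -38. Over all 18 windows of the 10 genes called within the somatic limit, 4 hold GGGCGG (Nelfb, Clta, Prtg and Ppt2) and 3 hold TATAAA (Nelfb, Gm41168 and H3f3b). Of all 32851 RefSeq start windows of the same length, 13.6% hold TATAAA and 35.7% hold GGGCGG on either strand.

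In NELF-B cKO cells few genes passed the test by edgeR, and most of those that did were higher. Over all 845 cells, 11996 genes were tested with edgeR, and besides Nelfb (1 gene lower, 0.00834% of those tested) 5 genes rose (0.0417%), namely Clta, Kcnn3, Gm41168, Prtg and Ppt2. Within the somatic limit 10856 genes were tested, 1 fell (0.00921%) and 9 rose (0.0829%), with DESeq2 calling 46 lower (0.425%) and 45 higher (0.416%). At an adjusted p of 0.01 and a 2-fold change, the thresholds of the study, edgeR left Nelfb as the 1 gene over all cells. At these thresholds DESeq2, the tool of the study, called 1 lower and 15 higher over all cells, and 5 lower and 20 higher within the limit. The study set its 2-fold threshold on shrunken log2 fold changes, whereas all those used here were not shrunken. Without any test, 10.7% of genes had both NELF-B cKO mice above every Control mouse and 7.52% had both below, or 12.4% and 8.59% within the limit.

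Because single cells carried many of these sums, the test was repeated with the highest cell of each gene left out in every mouse, an alternative added after the data were seen. This took 1 cell per gene from each mouse, whether it had 42 cells (Control replicate 4) or 251 (NELF-B cKO replicate 1). Mice with fewer cells thus lost a larger share of them, and how this moved the calls was not tested. Over all cells edgeR then called Nelfb alone (1 of 10784 or 0.00927% lower and 0 higher, with 724 at an unadjusted p under 0.05). Within the limit 3 genes fell (0.0319% of 9401) and 10 rose (0.106%), while DESeq2 called 43 lower (0.458%) and 22 higher (0.234%), so the balance of lower and higher depended on the tool. Gm41168 did not survive this, since 104 of its 116 UMIs in NELF-B cKO replicate 1 and 109 of 109 in replicate 2 lay in 1 cell each. Ppt2, Runx2 and Gm30015 had adjusted p = 0.385, 0.105 and 0.268 without their highest cells, against 0.0296, 0.0296 and 0.0363 with them (edgeR).

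These counts depended on single mice. Over all cells the 6 calls became 0 without Control replicate 1, 3 without replicate 2 or 3, and 2 without replicate 4. Without TDP-43 cKO replicate 1, 2 or 3, which enter the shared estimate of the spread, they became 2, 2 and 1. Within the limit the 10 calls became 1, 1 and 2 without Control replicates 1, 2 and 3, 19 without TDP-43 cKO replicate 1 and 1 without its replicate 2. Leaving out either NELF-B cKO mouse leaves 1 mouse in that group, so no count is given here or relied on.

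Among the genes that passed within the limit both with and without the highest cell was Clta, the clathrin light chain A of coated vesicles. Within the limit it stood at 333, 358, 270.4 and 245 CPM in Control, 1060.0 and 993 in NELF-B cKO, and 1065, 750 and 633 in TDP-43 cKO. All 5 mutant mice lay above all Control mice, which both comparisons share. It rose by 1.73 on the log2 scale in NELF-B cKO (adjusted p = 0.032), or 1.37 (SE 0.22, adjusted p = 0.0442, edgeR) without the highest cells. Over all cells without the highest cell its log2 fold change was 1.34 (adjusted p = 0.14, edgeR), where Nelfb was the 1 gene that passed. Clta was detected in most cells of every mouse, 69.3% to 85.7% in Control and 81.4% to 91.7% in the mutants, and its single highest cell held 10 to 69 UMIs in Control, 415 and 314 in NELF-B cKO and 103 to 213 in TDP-43 cKO.

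H3f3b was the most evenly spread of them. It stood at 3332, 3136, 2412 and 2739 CPM in Control, 5432 and 6272 in NELF-B cKO and 2423, 2915 and 2653 in TDP-43 cKO. The NELF-B cKO mice alone were set apart, with a rise of 0.97 on the log2 scale (adjusted p = 0.032) and of 0.91 (SE 0.13, adjusted p = 0.0203) without the highest cell, by edgeR.

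Zfp119b, a zinc-finger gene, stood at 56.5, 42.1, 93.8 and 129 CPM in Control, 489.8 and 431 in NELF-B cKO and 53.3 to 81.3 in TDP-43 cKO. It rose by 2.82 without the highest cells (SE 0.38, adjusted p = 0.0203, edgeR), and had a UMI in 36.7% and 27.1% of NELF-B cKO cells against 10.7% to 28.6% of Control cells. Kcnn3 was at 3.32, 4.51, 11.0 and 0 CPM in Control and at 107 and 200.2 in NELF-B cKO, and rose by 4.61 (SE 0.64, adjusted p = 0.0203) without the highest cells. Its NELF-B cKO UMIs numbered 309 in 29 of 251 cells and 124 in 3 of 48 cells.

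**Figure D5:**
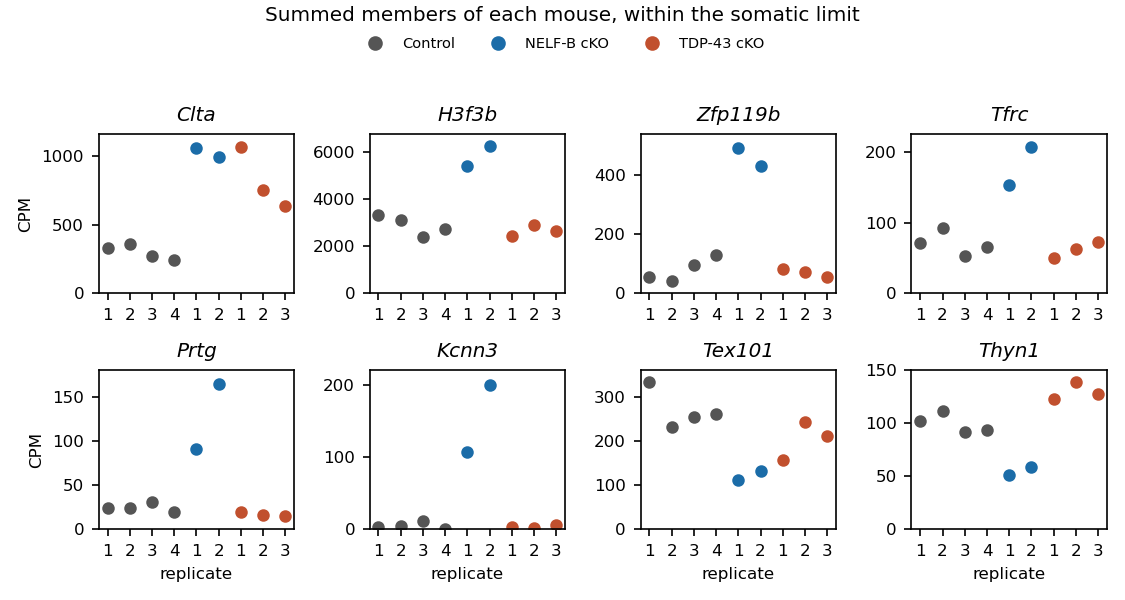
Levels in CPM of 8 genes in differentiating SG within the somatic limit, with the 9 mice as points, all called in NELF-B cKO when the highest cell of each gene was left out. For Clta the mice of both mutants lie above the Control mice, for H3f3b, Zfp119b, Tfrc, Prtg and Kcnn3 the 2 NELF-B cKO mice alone do, and for Tex101 and Thyn1 these 2 lie below every Control mouse.

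Prtg, an immunoglobulin superfamily receptor, rose by 1.58 without the highest cells (adjusted p = 0.0457, edgeR). Tfrc, the transferrin receptor, was at 70.8, 91.7, 52.4 and 65.3 CPM in Control and 153 and 207 in NELF-B cKO, a rise of 1.30 (SE 0.20, adjusted p = 0.0394). The other 4 were Rhd, the mouse Rh blood group antigen, at 74.2, 13.5, 8.53 and 95 CPM in Control and 487 and 441 in NELF-B cKO, Npas2, a circadian transcription factor, Unc13d and Vps26c. With the highest cells kept, these 4 had adjusted p = 0.165, 0.231, 0.313 and 0.361, that of Tfrc was 0.0755, and those of Tex101 and Thyn1 below were 0.0779 and 0.0782 (edgeR). The 2 lower genes besides Nelfb were Tex101, a germ-cell surface glycoprotein, at 334, 231, 255 and 261 CPM in Control against 112 and 132, and Thyn1 at 102, 111, 91.4 and 93.0 against 51.2 and 58.1. They fell by 1.09 and 1.00 (adjusted p = 0.0457 for both).

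Some genes with clear separation did not pass. Lin28a was at 435, 528, 201 and 261 CPM in Control and 1084 and 1361 in NELF-B cKO within the limit, a log2 fold change of 1.74 (SE 0.50, adjusted p = 0.299), and had a UMI in 70.0% and 67.5% of these cells against 28.6% to 40.0% in Control. Mki67, a proliferation marker, was at 187, 198, 179 and 166 CPM against 325 and 405 (0.95, SE 0.15, adjusted p = 0.0755 by edgeR and 0.000291 by DESeq2). The ribosomal protein genes Rpl30 and Rpl27a had log2 fold changes of -0.69 and -0.67 over all cells (adjusted p = 0.258 and 0.424).

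In TDP-43 cKO the result changed with the cells that were counted. Over all 845 cells 612 genes fell (5.1% of 11996) and 412 rose (3.43%), with adjusted p no lower than 0.0445 and none past the thresholds of the study by edgeR. The balance turned to higher without Control replicate 3 (64 lower, 407 higher), without TDP-43 cKO replicate 2 (311 and 715), in cells of at least 5000 UMIs (213 and 329) and without the highest cell of each gene (399 or 3.7% and 442 or 4.1% of 10784), and DESeq2 called 1031 lower (8.62%) and 1071 higher (8.95%). DESeq2 called 523 lower and 440 higher at those thresholds over all cells, and 301 and 19 within the limit. Within the somatic limit edgeR called 0 of 10856, with 2317 at an unadjusted p under 0.05 and a lowest adjusted p of 0.062, while DESeq2 called 660 lower (6.1%) and 159 higher (1.47%). With the highest cell of each gene also left out within the limit, 311 fell (3.31% of 9401) and 45 rose (0.479%), at a lowest adjusted p of 0.0345, with 493 lower (5.25%) and 96 higher (1.02%) by DESeq2. The 1024 calls over all cells became 0 without Control replicate 1, 2 or 4 or TDP-43 cKO replicate 1 or 3. The 0 calls within the limit became 725 and 778 without NELF-B cKO replicates 1 and 2. Every TDP-43 cKO mouse lay above every Control mouse for 12.2% of genes and below for 14.7% over all cells, and for 6.77% and 13.7% within the limit.

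The higher genes of the all-cell test included those of other cells. Erbb4, a receptor tyrosine kinase, was at 5.93 to 11.6 CPM in Control and 112, 67.6 and 46.8 in TDP-43 cKO over all cells (3.24, adjusted p = 0.0445, edgeR), and within the limit its log2 fold change was 1.18 (adjusted p = 0.308). Slc26a7 and Map3k21 were too low to be tested once the 62 cells were set aside. Of 19 immediate early genes tested, 8 were higher over all cells, where 3.43% of all genes were, and all 19 had positive log2 fold changes, with a median of 2.66. Within the limit all 13 tested were still positive, with a median of 0.81. In NELF-B cKO, where neither edgeR nor DESeq2 called any, all 19 were positive too (median 1.84), and 11 of 13 within the limit (median 0.45). In free RNA the list summed to 419 to 539 CPM in Control, 897 and 4364 in NELF-B cKO and 1537 to 4658 in TDP-43 cKO. With the estimated free RNA subtracted all 17 genes still tested were positive in both mutants, with medians of 1.96 in TDP-43 cKO and 1.90 in NELF-B cKO. The estimated share was 0 in NELF-B cKO replicate 2, so nothing was subtracted in that mouse, and cells over the somatic limit were kept. Whether free RNA lay behind these values was not tested. Of 12 Sertoli genes 3 were higher over all cells. Within the limit edgeR called none of any list, since it called 0 genes in all.

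The genes called lower were set beside the free RNA, and why they were lower was not tested. Of the 311 lower genes, 306 (98.4%) were higher in the free RNA of the Control mice than in their differentiating SG, against 33.3% of the 9401 genes tested, and 307 (98.7%) were higher in Control than in TDP-43 cKO free RNA, against 32.7% of all tested. Of the 45 higher genes, 6 (13.3%) were higher in Control free RNA than in Control cells, and 0 were higher in Control than in TDP-43 cKO free RNA. The pachytene and diplotene list had 9 of 11 tested genes lower over all cells, and DESeq2 called 11 of 11 within the limit, where edgeR called 0 and the median log2 fold change was -3.74. Over all cells that median was -3.18, and with the estimated free RNA subtracted it was -9.68 over the 8 genes still tested, while that of meiotic entry moved from -0.62 to -1.25. Ldhc, the germ-cell lactate dehydrogenase, was at 1752, 794, 2301 and 518 CPM in Control and 2.20, 122 and 124 in TDP-43 cKO within the limit. The free RNA share behind this subtraction ran from 0 to 69.1% of a mouse's UMIs and rested on 0, 3, 5 and 8 round spermatid UMIs in the cells of NELF-B cKO replicate 2 and TDP-43 cKO replicates 1 to 3. After it edgeR called 0 genes in either mutant, with 344 genes at an unadjusted p under 0.05 in NELF-B cKO and 2360 in TDP-43 cKO.

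Among the 45 genes that rose in TDP-43 cKO within the limit without the highest cells was Rbm3, a cold-inducible RNA-binding protein. It stood at 117, 116, 110 and 127 CPM in Control, 121 and 129 in NELF-B cKO and 325, 225 and 182 in TDP-43 cKO, a rise of 0.96 (adjusted p = 0.0345, edgeR). Esd, an esterase, was at 146, 132, 150 and 166 CPM against 268, 256 and 231 (0.84, same adjusted p), and the ribosomal protein gene Rpl3 at 795, 618, 621 and 760 CPM against 1364, 1125 and 1093 (0.83). Naaladl2 was at 2.21, 24.1, 128 and 13.9 CPM in Control and 213, 202 and 198 in TDP-43 cKO, and Clta rose by 1.18 (SE 0.20, adjusted p = 0.0345). In each of these genes the 3 TDP-43 cKO mice lay above all 4 Control mice, and all of them had adjusted p of 0.062 or more within the limit when the highest cells were kept.

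The counts of called genes in the groups that describe this stage were read against the background of NELF-B cKO cells, where edgeR called 0.00834% of all genes lower and 0.0417% higher, so that counts near 0 in a list are near the background. Of 19 lists, Nelfb in the list of polymerase pausing factors was the 1 gene called by edgeR, whether over all cells or within the limit. DESeq2, with 0.134% of all genes lower and 0.393% higher, or 0.425% and 0.416% within the limit, also called Tex101 of the differentiation list and the p53 target Ccng1 lower and Mki67 of mitosis higher, over all cells and within the limit, and Epcam of the stem cell list higher within it. The medians of the log2 fold changes within the limit were -0.30 for 15 genes of spermatogonial differentiation, -0.34 for 10 of retinoic acid signalling, 0.06 for 16 of KIT signalling, 0.08 for 24 of DNA replication and 0.12 for 24 of mitosis, against -0.02 for all genes. Over all cells the median of the retinoic acid list was 0.06 and that of replication -0.01, so these signs turned with the cells counted. None of the remaining 23 pausing and release genes tested was called, and their list had a median of 0.11.

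In TDP-43 cKO no list had a gene called by edgeR within the limit, and over all cells, where 5.1% of genes were lower and 3.43% higher, few genes of the lists that describe this stage were called. Of 15 differentiation genes Dmrtb1 was lower, at 243, 171, 293 and 216 CPM in Control against 41.4, 96.5 and 82.3 (-1.69, adjusted p = 0.0445, edgeR). Within the limit its log2 fold change was -1.10 (SE 0.26, adjusted p = 0.0622, edgeR), and DESeq2 called it lower there. Over all cells edgeR also called lower Rdh11 and Aldh1a2 of the retinoic acid list (2 of 11) and Hormad1, Syce1 and Stag3 of meiotic entry (3 of 18). Psmc3ip and Hsf2bp of double-strand break repair (2 of 23) and Prc1 of mitosis (1 of 24) were lower too. The integrin Itga6 and the syndecan Sdc4 were higher among 8 stem cell genes tested. Of 17 genes of KIT signalling, the ligand gene Kitl was higher and the ubiquitin ligase gene Cbl lower. Of 24 pausing and release genes, Aff4, of the super elongation complex, was higher and Larp7, which binds the 7SK RNA, lower. In DNA methylation (12 tested), DNA replication (24) and the p53 and apoptosis list (17) edgeR called 0 genes over all cells, while DESeq2, at 8.62% of all genes lower and 8.95% higher, called Dnmt1 and Pcna lower and Sesn1, Sesn2 and Gadd45b higher. At an unadjusted p under 0.05, edgeR had 6, 6 and 4 genes of these lists. Within the limit DESeq2 called 6.1% of all genes lower and 1.47% higher. In the lists of differentiation, retinoic acid, KIT signalling, meiotic entry and double-strand breaks, these included Rdh11, Syce1, Spo11 and Hsf2bp, which were lower. Dazl, Aldh1a3 and Rps6 were higher. Spo11 was lower by DESeq2 over all cells too. The median of the replication list was -0.24 over all cells and 0.25 within the limit, that of mitosis was -0.54 and 0.09, and that of spermatogonial differentiation -0.43 (11 of 15 negative) and 0.17 (7 of 15), so their signs changed with the 62 cells.

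Whether a mutant acted differently on differentiating SG than on a neighbouring stage was tested as an interaction, with the mouse as a block. Against undifferentiated SG edgeR called 0 genes for either mutant (1722 in NELF-B cKO and 3107 in TDP-43 cKO at an unadjusted p under 0.05), and against pL barcodes 2 for NELF-B cKO and 0 for TDP-43 cKO (1908 at an unadjusted p under 0.05). DESeq2 was not run on these interactions. The pair was Gm41168, with 213 of its 231 UMIs in 2 cells, and Dlgap1, a scaffold protein of synapses. Dlgap1 was at 36.3, 47.5, 27.3 and 63.3 CPM in Control differentiating SG and 173 and 185 in NELF-B cKO, but at 131, 115, 91.2 and 110.4 CPM in Control pL barcodes and 64.0 and 47.3 in NELF-B cKO (difference of log2 fold changes 3.11, SE 0.38, adjusted p = 0.0397). Without barcodes over the somatic limit its adjusted p was 0.076 and its values in NELF-B cKO differentiating SG were 157 and 66.2 CPM. The undifferentiated barcodes that served as the other reference included 494 of 1474 over the somatic limit, and their pachytene and diplotene list summed to 6363 to 10660 CPM in Control, above that of the differentiating SG.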

How the data were processed

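Testes of 9 mice on postnatal day 24 were profiled by 10x 3′ single-cell RNA-seq. The authors made the deposited UMI counts per gene and barcode with Cell Ranger, and the submitters' processing notes name Cell Ranger 6.1.1 and 7.0.0, Seurat 4.2.0 and DESeq2 1.36. The files hold every barcode with no cell type labels, so cells were chosen by the stated rule. No doublet caller was run, and what the 62 cells over the somatic limit are was not tested. The members and gene lists were chosen with earlier results of these data known.

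UMI counts of the chosen cells were summed per mouse, since cells are not replicates. The main test was edgeR 4.0.16 (quasi-likelihood test, filterByExpr, TMM, 1 fit over all 9 mice, R 4.3.3) with Benjamini-Hochberg adjustment over all genes tested and a threshold of 0.05. DESeq2 1.42.0 was an alternative. p-values measure the spread between the mice given as replicates. Shares and peaks were compared by exact permutation over mice (Python 3.11.15). On simulated counts of 12010 genes, 159 of 200 genes changed 4-fold were recovered for NELF-B cKO and 163 for TDP-43 cKO, with 8 false calls each. The changed genes were drawn from the better counted ones, and the simulated spread followed the fitted trend of spread on level. Single-cell peaks, cells over the somatic limit and free RNA were not simulated, so these rates need not hold for the real sums.

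Named genes were the targeted genes, up to 4 per direction with the lowest p at 10 CPM or more, called list members, the 15 genes highest against other barcodes at 50 CPM or more and the 8 highest against the neighbouring stages. Genes named for passing without the highest cell, Lin28a, single-cell peak genes and Dlgap1 were named after their values were seen. Free RNA was the sum of barcodes of 1 to 100 UMIs. Member UMIs per mouse ran from 505368 to 3051053.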

Additional observations from a re-analysis of the deposited data

Results flagged for a closer look

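In each set of 4 Control values the most extreme was compared with the rest by Dixon's ratio, which marks about 1 group in 20 by chance, and 1 of 34 sets was marked. Genes of the rule that chose the cells were not compared. Gm42918 in differentiating SG of Control replicate 3 was at 29.4 CPM, against 14.8 to 16 in the others.

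For 2 genes the NELF-B cKO effect in differentiating SG differed from that in pL barcodes by the interaction test. For Gm41168 the difference of log2 fold changes was 9.67 (SE 1.13, adjusted p = 0.0397, edgeR), with most of its UMIs in 1 cell of each NELF-B cKO mouse. For Dlgap1 it was 3.11 (SE 0.38, adjusted p = 0.0397, edgeR), and its own log2 fold change in differentiating SG was 2.03.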

How the results depend on the processing

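Alternatives that drop cells over the somatic limit, subtract 10% free RNA or leave out the highest cell of a gene were chosen after seeing the data. The number of genes called in NELF-B cKO was 6 and became 63 with DESeq2, 117 with no filter on low counts, 2 without the cKO and Control cells that held any Nelfb UMI, and 0 with free RNA subtracted or with only the 2 groups in the fit. It was 10 within the somatic limit, 91 there with DESeq2, 2 with 10% free RNA subtracted, 10 with both, 1 without the highest cells, 13 within the limit without them and 65 there with DESeq2. Leaving out each mouse gave 0 to 25, or 1 to 90 within the limit. The highest counts of both ranges came from fits with 1 NELF-B cKO mouse left, where that group has no spread of its own. No conclusion is drawn from them. With both NELF-B cKO mice kept, the counts were 0 to 3 over all cells and 1 to 19 within the limit. The Nelfb log2 fold change was -4.68 with free RNA subtracted and -4.64 in the fit of 2 groups, no longer past the threshold, and -5.20 to -3.78 without each mouse (-5.36 to -4.51 within the limit), where over all cells it missed the threshold without Control replicate 1.

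The 1024 calls in TDP-43 cKO became 2102 with DESeq2, 2422 without a filter, 1 without the cKO cells that held any Tardbp UMI, 1 without such cells in either group, 542 in cells of at least 5000 UMIs, and 0 with free RNA subtracted, without cells above 2 times the median UMIs or with at least 2 Crabp1 UMIs. They were 0 within the limit, 0 with 10% free RNA subtracted and 0 with both, and 356 within the limit without the highest cells, or 589 by DESeq2. Leaving out each mouse gave 0 to 1529, or 0 to 778 within the limit. The Tardbp log2 fold change kept its sign but missed the threshold at -0.76 with DESeq2 size factors, -0.71 without a filter, -1.71 with free RNA subtracted, -0.77 with 2 groups, -0.71 at 5000 UMIs, -1.09 without the deepest cells, -1.20 with 2 Crabp1 UMIs, -1.53 within the limit, -0.88 with 10% free RNA subtracted, -1.86 with both, and -0.97 to -0.69 without each mouse (-1.75 to -1.36 within the limit). Fold changes of the targeted genes are not given after leaving out cells by their target UMI, but the counts of called genes did not set these genes aside. Tardbp is then 0 in the TDP-43 cKO mice by construction. The 1 gene called without such cKO cells was lower and may be Tardbp itself.

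The TDP-43 cKO share turned to a log2 ratio of -0.27 among undifferentiated to zygotene barcodes. Interaction calls against undifferentiated SG became 193 (NELF-B cKO) and 604 (TDP-43 cKO) without a filter and 62 for TDP-43 cKO with free RNA subtracted, and without each mouse 0 to 7 and 0 to 2 (0 to 11 and 0 to 4 within the limit). Those against pL barcodes became 117 and 385 without a filter, 0 for NELF-B cKO with free RNA subtracted, 0 and 2 within the limit, and 0 to 8 and 0 to 2 without each mouse (0 to 69 and 0 to 3 within the limit). The cause of these changes was not tested.

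Replicate numbers were not seen to pair the mice, with correlations over 4546 genes of -0.48 to 0.17 for same-numbered mice and -0.38 to 0.48 for others. The values of the 2 NELF-B cKO mice mirror each other, so these correlations cannot show whether mice shared a litter or batch. With the replicate block the calls were 0 in both mutants over all cells, and 4 (1 lower, 3 higher) in NELF-B cKO and 0 in TDP-43 cKO within the limit, the Nelfb log2 fold change was -4.57 (adjusted p = 0.273, edgeR) and that of Tardbp -0.87, or -1.55 within the limit.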
